A study of Mus musculus with 8 samples.

Results

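Both ways of disturbing the transcription factor Tbx18 were set together against control: 5 arrays from embryos with an altered Tbx18 genotype against 3 control arrays, which are all 8 arrays of the series. The arrays were grouped by genotype alone, although this grouping and the gene lists used below were chosen with earlier results of these data known. The question is which genes stand apart from control on every altered array, upward or downward. RNA came from GFP-positive cells that had been sorted out of kidney rudiments of NMRI mouse embryos at stage E11.5. Control embryos were Tbx18(GFP/+), with 1 Tbx18 allele replaced by GFP. Null embryos, on 3 of the altered arrays, were Tbx18(GFP/GFP). The other 2 altered arrays came from Tbx18(cre/+);Hprt(Tbx18VP16) embryos, in which Cre from the Tbx18 locus switches on a Tbx18VP16 fusion together with GFP, placed in the Hprt locus under the CAG promoter. All 3 genotypes thus carried at least 1 modified Tbx18 allele, none was wild type, and GFP came from a different locus in the Tbx18VP16 embryos. Pools of roughly 100000 cells, male and female together and gathered over successive sorts, went onto the arrays, so the embryos behind an array are not separate replicates.

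Tbx18 is a T-box factor of the loose mesenchyme around the early ureter, where it is known for keeping cells in the lineage that later forms the smooth muscle and connective tissue of the ureter wall. T-box factors bind DNA through a conserved domain, and Tbx18 is known mainly as a repressor. VP16, a strong activation domain of a herpes virus protein, turns such a factor into an activator. The neighbouring mesenchyme of the rudiment holds nephron progenitors and renal stroma, which respond to WNT, FGF, GDNF and retinoic acid signals.

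Tbx18 and Hprt were read first as a check of the labels. Tbx18 was at -0.02, 1.20 and 1.04 on the control arrays, at -2.40, -1.34 and -2.35 on the null arrays and at 1.34 and 1.06 on the Tbx18VP16 arrays, as log2 signal relative to each array's 75th percentile, the scale of all levels here. Hprt, whose locus holds the transgene, was between 1.93 and 2.87 on the control and null arrays and at -1.94 and -1.57 on the Tbx18VP16 arrays. Tbx18 was thus low on the null arrays and Hprt on the Tbx18VP16 arrays. Neither gene separates the 5 altered arrays from control, and their changes were -1.48 ± 0.92 and -1.30 ± 1.20 (SE, n = 5 and 3; limma adjusted p = 0.977 for both). The Tbx18 probe, at 87599514 to 87599573 on the minus strand of chromosome 9 (mm9), is a limited check, because the labels do not say which part of the gene each allele keeps. Mesenchymal genes of the rudiment (Pdgfra, Pdgfrb, Foxd1, Osr1 and Wt1) were well above background on all 8 arrays.

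Between 58.6% and 64.3% of the 39429 probes shared by both array designs were well above background, no spot was saturated, and the number of arrays limits the precision. The first slide held control and null 1 and 2, labelled from 20 ng of RNA, and a second slide control and null 3, labelled from 10 ng. Both Tbx18VP16 arrays were of another array design on a slide of their own, so that genotype, design and slide cannot be told apart for them. Markers of other cell types also differed. The summed level of 11 tested platelet markers, in multiples of the 75th percentile signal, was 0.252 to 0.345 in control, 0.289 to 2.03 in null and 4.79 to 9.34 in Tbx18VP16 pools, and that of 11 erythroid markers was 543 on null array 3 against 3.54 to 32.4 on the other arrays. Leukocyte markers summed to 1.27 to 1.53 in control and 1.53 to 3.49 over the altered arrays. None of the 86 distinct tested markers of 8 such cell types passed the test of altered against control in limma. At an unadjusted p under 0.05 were 22 of the 86, a larger share than the 1137 of all 19235 genes tested. The part of these markers in the results below was not tested. In bulk pools, fewer cells of a type and less RNA per cell cannot be told apart.

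**Figure D1:**
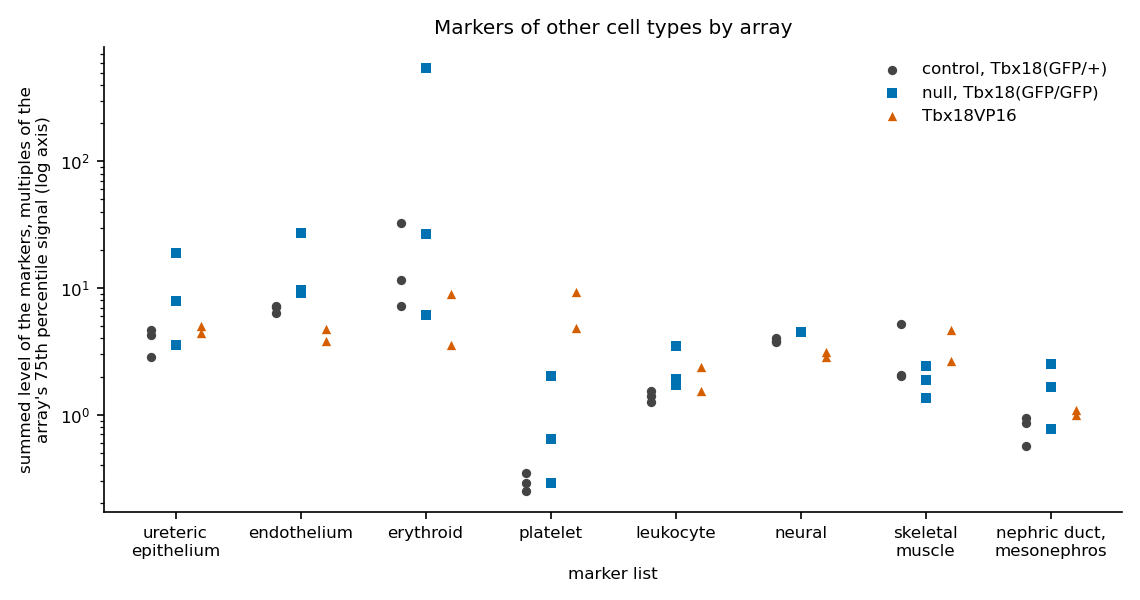
Summed level of the tested markers of 8 other cell types on each array, in multiples of the array's 75th percentile signal on a log axis, with 1 point per array (control circles, null squares, Tbx18VP16 triangles). Null array 3 reaches 543 for erythroid markers, and both Tbx18VP16 arrays lie above all others for platelet markers, at 4.79 and 9.34.

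Of 19235 genes tested, 46 passed the threshold of 0.05 in altered against control (limma, Benjamini-Hochberg adjustment over all genes), a share of 0.239%. That share is the one to set beside each count of called members of a gene list below. The lists were chosen with earlier results known, so no such count is a test of a list. Of the 46, 25 were higher (0.13% of genes tested) and 21 lower (0.109%). On every one of the 46 the 5 altered arrays lay wholly above or wholly below the 3 control arrays, the mean change was at least 2-fold, and on 42 at least 1 log2 unit separated the nearest arrays of both sides, a distance called the gap here. Such separation is less rare than a call: over all genes tested, 830 had no overlap in either direction (4.32%) and 64 had a gap of at least 1 (0.333%). By direction, 429 had all 5 altered arrays above control (2.23%) and 401 all below (2.08%), while a gap of at least 1 was reached by 31 upward (0.161%) and 33 downward (0.172%). Of the 46, 34 were well above background on all 8 arrays, 17 in each direction. Their changes ran from 1.35 to 3.85 among those higher and from -3.62 to -1.51 among those lower, with Rspo1 (2.53) and Sphk1 (2.69) having the widest gaps. The other 12 were not well above background on at least 1 array of their dim side, so their measured gaps and changes are not exact. These changes stand against a median of -0.06 over all genes tested, of which 8257 (42.9%) had a higher mean in the altered pools.

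The count depends on the arrays and on the spread assumed. It was 19, 5 and 7 without control 1, 2 and 3, it was 114, 28 and 18 without null 1, 2 and 3, and it was 16 and 10 without Tbx18VP16 1 and 2. With neither array of 10 ng, 0 genes passed in limma (617 at an unadjusted p under 0.05; the smallest adjusted p was 0.0535). Control and null pools of the same number deviated together, and with those pairs as a random block 1134 genes passed, 608 higher and 526 lower, all 46 among them. With a fixed block for the replicate number 15 passed, 13 of them among the 46. With the slide as a random block 91 passed, again with all 46. All 46 kept their direction under each of the 21 alternatives and single-array omissions run. Normexp background correction gave 13 higher and 20 lower genes, 39.4% higher against 54.3% here, with 29 of the 46 among them. Ccdc160, Hopx, Rspo1, Sphk1 and Sqor passed under all of them except the one without the 10 ng arrays.

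**Figure D2:**
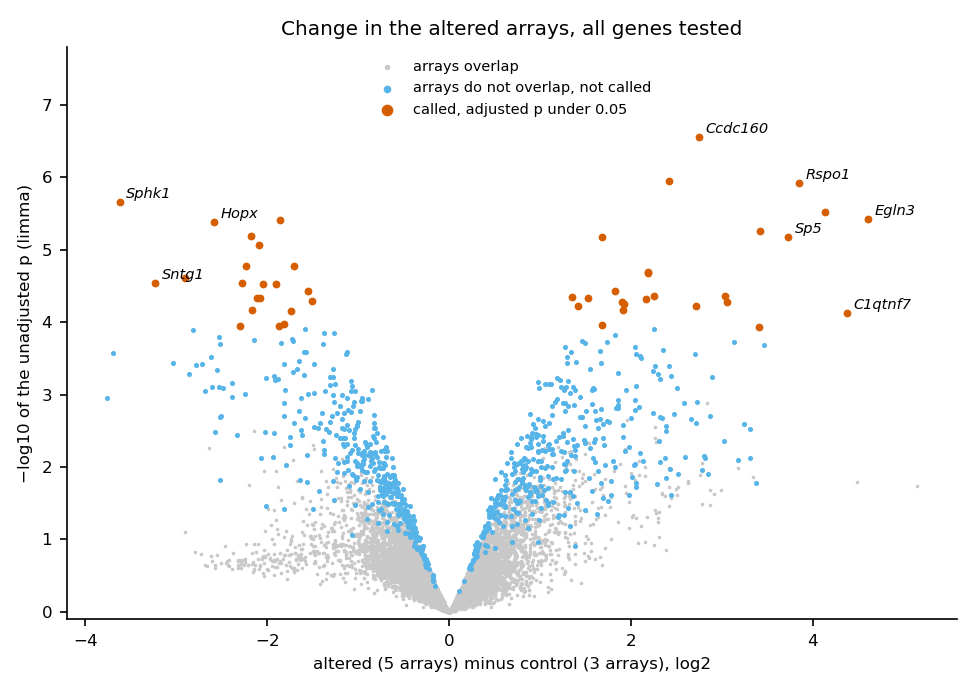
Change in the 5 altered arrays relative to the 3 control arrays (log2, x axis) against the −log10 of the unadjusted p of limma (y axis), with 1 point per gene tested. The 46 called genes are orange, the 784 other genes whose arrays do not overlap between both sides are blue, and genes with overlapping arrays are grey.

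Egln3, which encodes a prolyl hydroxylase that marks hypoxia-inducible factors for decay, was well above background on all 5 altered arrays and on no control array. The probe maps to 55280953 to 55281012 on chromosome 12, minus strand (mm9). Egln3 was at -7.50, -7.50 and -7.71 on the control arrays, at -4.15, -3.59 and -2.73 on the null arrays and at -2.45 and -1.87 on the Tbx18VP16 arrays. It was thus at least 8.13-fold higher in the altered pools (adjusted p = 0.00988). Normexp background correction gave a change of 1.81 (adjusted p = 0.0739), which is under this bound. In such a lower bound the mean of the bright side is divided by a floor for the dim side: on each dim array the weakest signal that counts as well above background, or the gene's own where that is stronger. The bound carries no error and holds only for the background subtraction used. The 7 genes called higher that no control array measured, Egln3 among them, met the filter for testing through altered arrays alone. Sorcs3 and the unnamed probe called lower met it through control arrays alone. The p-values of all these genes rest on signal not well above background on the dim side. Of 21 tested genes of hypoxia and glycolysis, Egln3 was the 1 called, 14 had a higher mean and the median change was 0.15. Pdk1 and Hk2, which turn glucose carbon toward glycolysis, did not overlap control either but did not pass, with changes of 0.79 ± 0.21 and 0.63 ± 0.21 (SE; adjusted p = 0.274 and 0.526).

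Signals of the WNT pathway were among the called genes in both directions. Rspo1, a secreted R-spondin that strengthens WNT signalling at the receptor, was at -0.64, -2.05 and -1.37 in control, at 2.63, 1.89 and 2.69 in null and at 2.42 and 2.85 in Tbx18VP16 pools. The null and Tbx18VP16 arrays cover the same range, and the change of 3.85 ± 0.34 (SE; adjusted p = 0.00764) is larger than the spread within either side (SD 0.71 in control and 0.37 in the altered pools). Within the first slide the null minus control difference was 3.61, and within the second 4.06. The probe lies on the plus strand of chromosome 4, from 124686270 to 124686329 (mm9). Sfrp2, a secreted frizzled-related protein that binds WNT ligands, fell by 2.11 ± 0.29 on the log2 scale (SE; adjusted p = 0.0293). Its levels were 3.64, 4.50 and 4.10 in control, 1.96, 2.43 and 2.23 in null and 1.84 and 1.40 in Tbx18VP16 pools, so the lowest control array stood 1.21 above the highest altered one.

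Sp5, a zinc-finger factor and well-known direct target of WNT signalling through TCF/LEF factors, was at -7.57, -6.99 and -6.28 on the control arrays, none of them well above background. It was at -3.81, -3.74 and -2.65 on the null and at -3.43 and -2.46 on the Tbx18VP16 arrays, at least 6.78-fold higher (adjusted p = 0.0109). With normexp its change was 1.40, under this bound and not called (adjusted p = 0.0746). Of the 13 tested genes of WNT feedback and direct targets, Sp5 was the 1 called, 9 had a higher mean and the median change was 0.70. Cdx1 and Tcf7, other targets of the pathway, had changes of 0.91 ± 0.34 and 0.82 ± 0.31 (SE; adjusted p = 0.624 and 0.638) with overlapping arrays. Among 14 tested secreted WNT modulators, Rspo1 rose and Sfrp2 fell, and 8 had a higher and 6 a lower mean. The median change was 0.14 over all altered arrays, -0.32 in null and -0.09 in Tbx18VP16 pools. All altered arrays lay above control for 2 and below it for 5, against 2.23% and 2.08% of all genes tested. Rspo3, Dkk1 and Dkk3 were among these non-overlapping members and did not pass. Dkk2 and Sfrp1, inhibitors of the pathway, lay below control on all 5 arrays without passing, with changes of -2.72 ± 0.50 and -0.85 ± 0.18 (SE; adjusted p = 0.0829 and 0.12). Dkk2 was well above background on no Tbx18VP16 array, so its change is not exact. Of 24 tested WNT ligands and receptors 0 passed in limma (4 at an unadjusted p under 0.05, against 1137 of all 19235 genes tested). All 5 altered arrays lay above control for 3 of them, against 2.23% of all genes tested.

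The promoters of the called genes were read for the letters that these factors prefer. RefSeq windows (GRCm38.p6) from 250 bases before to 50 after the start were at hand for 34 of the 46 called genes, in 42 windows. The T-box site AGGTGTGA, on either strand, was found in 0 of these 42 windows and in 1.28% of all 32851 windows. Its core AGGTGT, which the longer site contains, was in 2 of the 42 (4.76%) and in 13.7% of all. The TCF/LEF core CTTTGA was in 3 of the 42 (7.14%) and in 16.0% of all. The 250 bases upstream of 3 of these genes are shown 5′ to 3′ on the gene's strand: the WNT target Sp5 and both genes with a T-box core. They are Sp5 (chr2:70474673-70474922, plus strand) with TCF/LEF cores in capitals, and Pdlim3 (chr8:45885237-45885486, plus strand) and Slc5a7 (chr17:54299035-54299284, minus strand) with the T-box core, or its reverse complement, in capitals. A match describes letters and is not a bound site.
Sp5: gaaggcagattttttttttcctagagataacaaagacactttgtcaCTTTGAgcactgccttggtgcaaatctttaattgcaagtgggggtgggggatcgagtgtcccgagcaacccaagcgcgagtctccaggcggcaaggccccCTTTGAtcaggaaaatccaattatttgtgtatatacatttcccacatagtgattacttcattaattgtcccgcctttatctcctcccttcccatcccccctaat
Pdlim3: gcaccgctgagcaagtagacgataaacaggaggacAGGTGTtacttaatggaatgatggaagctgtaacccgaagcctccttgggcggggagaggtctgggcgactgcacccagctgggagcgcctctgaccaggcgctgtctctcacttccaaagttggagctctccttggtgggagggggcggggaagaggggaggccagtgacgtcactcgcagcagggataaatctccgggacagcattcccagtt
Slc5a7: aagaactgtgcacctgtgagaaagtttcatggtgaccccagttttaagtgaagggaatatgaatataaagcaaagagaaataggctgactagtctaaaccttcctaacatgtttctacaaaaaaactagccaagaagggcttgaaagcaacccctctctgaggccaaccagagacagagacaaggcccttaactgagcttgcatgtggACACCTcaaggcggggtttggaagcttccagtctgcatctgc
Sp5 carries the TCF/LEF core in 2 places of this stretch, Pdlim3 carries the T-box core in 1 place far from the start, and Slc5a7 carries its reverse complement in 1 place near the start. Pdlim3 rose and Slc5a7 fell in the altered pools, as given below.

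Hoxb2 and Hoxb8, homeobox genes of the Hoxb cluster, rose. Hoxb2 was at 0.29, 0.50 and 0.42 in control, at 1.86, 2.70 and 2.54 in null and at 2.91 and 2.96 in Tbx18VP16 pools, a change of 2.19 ± 0.27 (SE; adjusted p = 0.0238). Hoxb8 was at -0.99, -1.52 and -1.59 in control, at 0.26, 0.37 and 1.19 in null and at 0.32 and 0.63 in Tbx18VP16 pools, a change of 1.92 ± 0.27 (SE; adjusted p = 0.031). The Hoxb cluster is described whole, after its values were seen, since these genes sit side by side on chromosome 11 and give cells their position along the body axis. Of its 9 tested genes, 7 had all altered arrays above control, against 2.23% of all genes tested. The other 2, Hoxb3 and Hoxb7, overlapped control. Hoxb4 and Hoxb5 had changes of 1.46 ± 0.24 and 0.99 ± 0.20 (SE; adjusted p = 0.0611 and 0.12). Hoxb1, at the anterior end of the cluster, had a change of 2.80 ± 0.81 (SE; adjusted p = 0.369) and differed between the altered genotypes (adjusted p = 0.00822), with null arrays at -2.27 to -1.50 and Tbx18VP16 arrays at -4.92 and -4.56. Over the Hox genes of all clusters, 1 of 17 tested anterior members and 1 of 19 tested posterior members passed, and their median changes were 0.22 and 0.18.

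**Figure D3:**
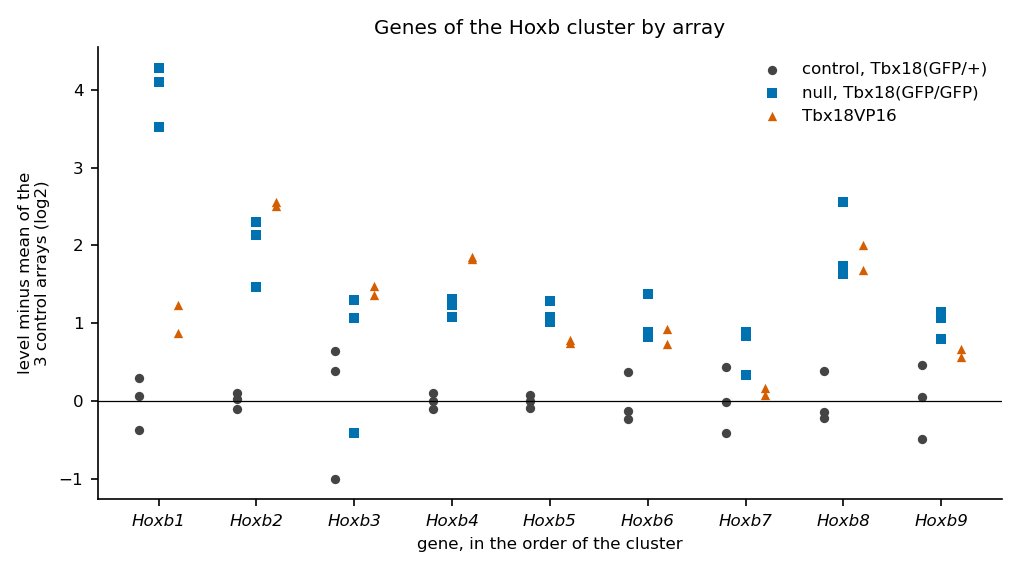
Level of each tested Hoxb gene on each array minus its mean on the 3 control arrays (log2), in the order of the cluster, with 1 point per array (control circles, null squares, Tbx18VP16 triangles). For 7 of the 9 genes all 5 altered arrays lie above the control arrays, Hoxb3 and Hoxb7 overlap, and for Hoxb1 the null arrays lie apart from the Tbx18VP16 arrays.

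Meox1, a homeobox gene known from somites and nephron progenitors, was at -3.92, -3.31 and -2.57 in control, at -1.40, -0.03 and 0.91 in null and at 0.46 and 0.80 in Tbx18VP16 pools. Null array 1 is the altered array nearest to control, and the change was 3.41 ± 0.53 (SE; adjusted p = 0.0492). Among 22 tested nephron progenitor genes, Meox1 was the 1 called and the median change was 0.82. A higher mean was found for 20 and all altered arrays above control for 5, against 42.9% and 2.23% of all genes tested. By genotype the median of these 22 genes was 1.15 in null and 0.22 in Tbx18VP16 pools relative to control, against 0.007 and -0.14 over all genes tested. Wt1 and Cited1, transcriptional regulators of these progenitors, had changes of 2.04 ± 0.35 and 1.67 ± 0.38 (SE; adjusted p = 0.064 and 0.167). Dach1, a nuclear factor that works with Eya proteins, was at 1.33, 1.22 and 1.18 in control against 2.41 to 2.82 on the altered arrays, a change of 1.35 ± 0.19 (SE; adjusted p = 0.0293).

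Etv4, an ETS factor induced by FGF and GDNF signalling, was at 0.91, 0.10 and -0.03 in control, at 3.02, 2.46 and 2.95 in null and at 2.09 and 2.34 in Tbx18VP16 pools. Both altered genotypes stood apart from control, with a change of 2.25 ± 0.31 (SE; adjusted p = 0.0293). It was the 1 gene called among 21 tested genes of FGF signalling and among 15 of the GDNF pathway, where the median changes were 0.23 and 0.46. The ligands Fgf9 and Fgf10 lay above and Fgf7 below control on all 5 arrays, with changes of 2.71 ± 0.66, 1.09 ± 0.30 and -1.65 ± 0.37 (SE; adjusted p = 0.213, 0.306 and 0.173). Fgf9 was well above background on a single control array. Lhx3, a LIM-homeobox gene of pituitary and motor neurons, was well above background on no control array and was at least 7.04-fold higher (adjusted p = 0.0293), but changed by 1.38 with normexp (adjusted p = 0.175). Its null arrays stood at -3.94 to -3.41 and its Tbx18VP16 arrays at -2.33 and -2.32.

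Cdkn2b, Lama5, Pdlim3, Krt20 and Grhl1 rose as well. Cdkn2b, which encodes an inhibitor of the cyclin-dependent kinases of G1, was at -7.75, -8.14 and -8.37 in control, below the level that counts as well above background. It was at -3.76, -3.91 and -5.15 in null and at -3.09 and -3.86 in Tbx18VP16 pools, at least 4.08-fold higher (adjusted p = 0.00988). With normexp its change was 1.15, under this bound and no longer called (adjusted p = 0.292). None of the other 5 tested inhibitors of this kind passed. Of 20 tested proliferation genes and 16 tested apoptosis genes 0 passed in limma (1 and 1 at an unadjusted p under 0.05, against 1137 of all 19235 genes tested). Their median changes were -0.09 and 0.02. Lama5, the laminin chain that dominates the basement membranes of maturing epithelia, was at -1.15, -1.31 and -1.27 in control and at 0.23 to 1.17 on the altered arrays, a change of 1.82 ± 0.25 (SE; adjusted p = 0.0293). It was the 1 gene called of 25 tested integrin and laminin genes. Pdlim3, an actinin-binding protein of muscle, rose by 2.72 ± 0.39 (SE; adjusted p = 0.031), and Krt20, a keratin of epithelia, was at least 4.74-fold higher (adjusted p = 0.0301). Grhl1, a grainyhead-like factor of epithelia, was at least 5.62-fold higher (adjusted p = 0.0109). Neither was well above background on any control array, and with normexp their changes were 1.13 and 1.23, under these bounds and not called (adjusted p = 0.239 and 0.0704). The summed level of 16 tested markers of the ureteric epithelium was 2.87 to 4.70 in control, 3.58, 7.95 and 18.9 on null arrays 1, 2 and 3, and 4.39 and 5.0 in Tbx18VP16 pools. Of these markers 14 had a higher mean, against 42.9% of all genes tested, and 0 passed in limma (3 at an unadjusted p under 0.05). By genotype their median change was 1.44 in null and -0.37 in Tbx18VP16 pools, against 0.007 and -0.14 over all genes tested. Krt18 and Krt19 lay above control on all 5 arrays, against 2.23% of all genes tested. Their changes were 1.67 ± 0.57 and 1.28 ± 0.39 (SE; limma adjusted p = 0.54 and 0.403). The part of these cells in the changes of Lama5, Krt20 and Grhl1 was not tested.

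Rdh10, Sqor, C1qtnf7, Ccdc160 and Rcsd1 rose too. Rdh10, which makes retinal for retinoic acid synthesis, was at 1.43, 1.60 and 1.21 in control, at 2.85, 3.14 and 2.58 in null and at 2.82 and 2.78 in Tbx18VP16 pools, a change of 1.42 ± 0.20 (SE; adjusted p = 0.031). The genotypes again cover the same range. Of 16 tested genes of retinoic acid metabolism and transport, Rdh10 was the 1 called and the median change was 0.01. Sqor, a mitochondrial enzyme that oxidises sulfide, had control arrays between -4.36 and -3.77 and altered arrays between -1.89 and -1.39, a change of 2.42 ± 0.21 (SE; adjusted p = 0.00764). C1qtnf7, a secreted protein of the C1q and TNF family, was at -5.55, -6.15 and -4.86 in control, at -2.10, -2.38 and -1.44 in null and at -0.20 and 0.43 in Tbx18VP16 pools. A single control array had it well above background, and the change was 4.38 ± 0.65 (SE; adjusted p = 0.0352). Its other tested probe changed by 1.90, and with normexp the gene was not called (2.80, adjusted p = 0.0828). Ccdc160, a gene with a coiled-coil domain, had the smallest p of all genes, with control arrays between -3.22 and -2.86, altered arrays between -0.59 and -0.08 and a change of 2.75 ± 0.21 (SE; adjusted p = 0.00532). Its probe lies at 50152573 to 50152632 on chromosome X (mm9), near that of Hprt at 50374757 to 50374816. The Hprt locus holds the transgene of the Tbx18VP16 embryos. Ccdc160 differed from control by 2.69 in null and by 2.84 in Tbx18VP16 pools. The part of its position in the Tbx18VP16 value was not tested. Rcsd1 rose by 1.68 ± 0.18 (SE; adjusted p = 0.0109). The remaining genes called higher were Proser2, Wnk4, Cracdl, Rassf9, Pnliprp1 and 1 with a clone-like name. The kinase Wnk4 regulates salt transport in the kidney.

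**Figure D4:**
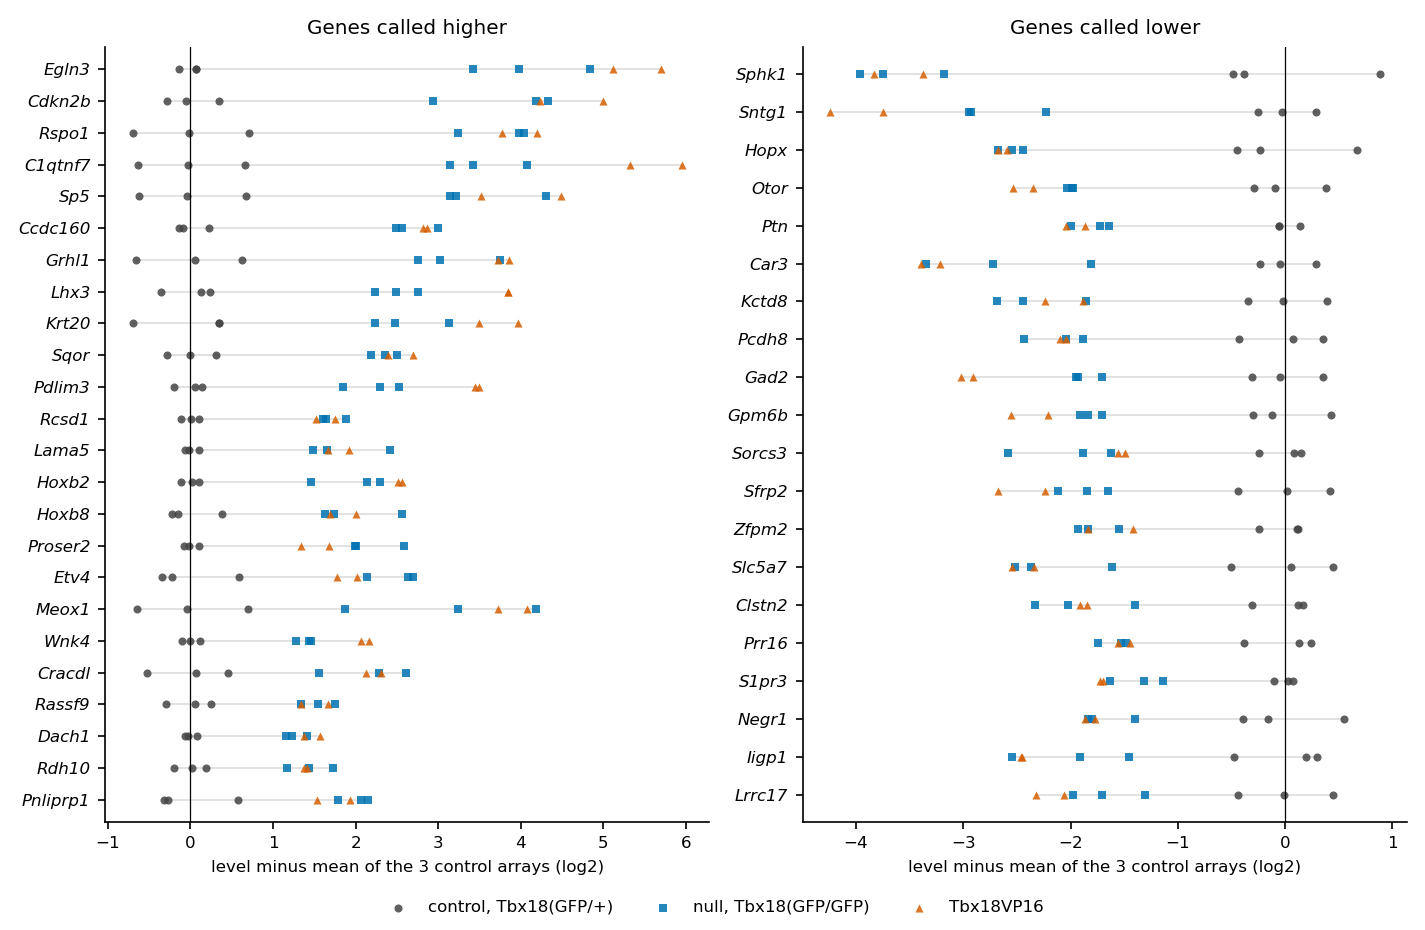
Level of each called gene with a gene name on each array minus its mean on the 3 control arrays (log2, x axis), ordered by the measured distance between the nearest arrays of both sides, with 1 point per array (control circles, null squares, Tbx18VP16 triangles). No gene shown has an altered array among the control arrays, and for Egln3, Cdkn2b, Sp5, Grhl1, Lhx3, Krt20, C1qtnf7, Sntg1, Slc5a7 and Sorcs3 some arrays of the dim side were not well above background, so that their distances are not exact.

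On the downward side stood a kinase and a receptor of sphingosine 1-phosphate signalling. Sphk1, which makes this lipid signal, was at 0.25, 0.36 and 1.62 in control, at -3.01, -3.22 and -2.44 in null and at -3.09 and -2.64 in Tbx18VP16 pools, a change of -3.62 ± 0.35 (SE; adjusted p = 0.00988). Its null minus control difference was -3.42 within the first slide and -4.07 within the second, and both of its tested probes moved alike, at -3.62 and -3.60. The brighter probe lies on the plus strand of chromosome 11, from 116397908 to 116397967 (mm9). S1pr3, a receptor for the lipid, was at 1.98, 2.11 and 2.15 in control, at 0.94, 0.76 and 0.45 in null and at 0.35 and 0.38 in Tbx18VP16 pools, a change of -1.51 ± 0.21 (SE; adjusted p = 0.0301). These were the 2 genes called of 12 tested in the pathway, against 0.239% of all genes tested. Of the 12, 6 had a lower and 6 a higher mean, with a median change of -0.03. S1pr1, another receptor, overlapped control with a change of 0.59 ± 0.48 (SE; adjusted p = 0.977).

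Ptn, Car3, Hopx, Zfpm2 and Otor also fell. Ptn, which encodes the heparin-binding factor pleiotrophin, was at 4.53, 4.73 and 4.53 in control, at 2.59, 2.86 and 2.95 in null and at 2.55 and 2.72 in Tbx18VP16 pools, a change of -1.86 ± 0.19 (SE; adjusted p = 0.00988). Car3, a cytosolic carbonic anhydrase, was at 3.14, 2.62 and 2.80 in control, at 1.04, 0.13 and -0.50 in null and at -0.37 and -0.54 in Tbx18VP16 pools, a change of -2.90 ± 0.37 (SE; adjusted p = 0.0263). Null array 1 was the altered array nearest to control for Car3. Of 20 tested genes of the ureteric mesenchyme, Car3 was the 1 called, 12 had a lower and 8 a higher mean, and the median change was -0.06, the same as over all genes. Foxf1 and Tbx3, transcription factors of this tissue, lay above control on all 5 arrays with changes of 1.98 ± 0.55 and 0.45 ± 0.18 (SE; adjusted p = 0.318 and 0.734). Of 9 tested smooth muscle genes 0 passed in limma (1 at an unadjusted p under 0.05, against 1137 of all 19235 genes tested). All 9 had overlapping arrays, as had 18405 of the 19235, so nothing is read from this about smooth muscle genes. Hopx, a homeodomain protein that binds no DNA, was between -1.25 and -0.13 in control and between -3.48 and -3.24 on the altered arrays, a change of -2.58 ± 0.27 (SE; adjusted p = 0.00988). The 5 altered arrays of Hopx span 0.24, so that null and Tbx18VP16 pools cannot be told apart by it. Zfpm2, a cofactor of GATA factors, fell by 1.71 ± 0.21 (SE; adjusted p = 0.0217), and Otor, a secreted protein known from the inner ear, by 2.18 ± 0.24 (SE; adjusted p = 0.0109).

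Sntg1, Pcdh8, Gpm6b, Gad2, Kctd8, Sorcs3 and Slc5a7 were called lower as well. Sntg1, a syntrophin of the dystrophin complex, was at -3.50, -3.28 and -2.96 in control, at -6.20, -5.48 and -6.18 in null and at -7.49 and -7.00 in Tbx18VP16 pools. It was well above background on 1 of the 5 altered arrays, and the measured change was -3.23 ± 0.42 (SE; adjusted p = 0.0263), against -1.49 with normexp (adjusted p = 0.0793). Pcdh8, a protocadherin, was at 1.01, 1.51 and 1.79 in control and between -0.99 and -0.44 on the altered arrays, a change of -2.09 ± 0.24 (SE; adjusted p = 0.0128). Gpm6b, a membrane proteolipid, was at 1.80, 1.62 and 2.35 in control and between -0.64 and 0.21 on the altered arrays, a change of -2.05 ± 0.27 (SE; adjusted p = 0.0263). Gad2, which makes the transmitter GABA, was at -1.04, -0.38 and -0.78 in control, at -2.44, -2.66 and -2.68 in null and at -3.75 and -3.64 in Tbx18VP16 pools, a change of -2.30 ± 0.36 (SE; adjusted p = 0.0489). Kctd8, a subunit of GABA-B receptors, fell by 2.23 ± 0.27 (SE; adjusted p = 0.0217), and Sorcs3, a sorting receptor that was well above background on no altered array, was at least 2.85-fold lower (adjusted p = 0.0487). The call of Sorcs3 was lost in 13 of the 21 alternatives and omissions, and its change with normexp was -0.72, short of this bound (adjusted p = 0.518). Slc5a7, the choline transporter, fell by 2.28 ± 0.30 (SE; adjusted p = 0.0263) and was well above background on 1 altered array, and with normexp its change was -0.98 (adjusted p = 0.287). Clstn2, Negr1, Lrrc17, Prr16, Iigp1 and 1 probe with no gene name were the others called lower.

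Small leucine-rich proteoglycans, elastic fibre genes and collagens held no called gene. Of 6 tested small leucine-rich proteoglycans all had a lower mean and 0 passed in limma (2 at an unadjusted p under 0.05). Dcn and Lum lay below control on all 5 arrays with changes of -2.33 ± 0.60 and -3.76 ± 0.80 (SE; adjusted p = 0.265 and 0.139), and in both the Tbx18VP16 arrays were lower still than the null arrays. Fbln5, which helps assemble elastic fibres, was at 0.31, 0.18 and 1.09 in control, at -3.34, -3.73 and -2.31 in null and at -1.94 and -1.19 in Tbx18VP16 pools, a gap of 1.37 with a change of -3.03 ± 0.55 (SE; adjusted p = 0.0829). The 19 tested elastic fibre genes and the 19 tested collagens held 0 called genes in limma. At an unadjusted p under 0.05 were 7 and 7, against 1137 of all 19235 genes tested. Below control on all 5 arrays were 3 and 4 members and above it 1 and 2, against 2.08% and 2.23% of all genes tested. The members above were Loxl1, Col8a1 and Col18a1, with changes of 1.21 ± 0.52, 2.87 ± 0.67 and 1.03 ± 0.28 (SE; adjusted p = 0.814, 0.191 and 0.29), and Col8a1 was well above background on 1 control array. The genes just outside the threshold, with changes of 2.25 for Clic6, -1.58 for 0610009E02Rik and -2.82 for Mrgprx2, each had a limma adjusted p of 0.0504. Clic6 was well above background on no control array and on 3 altered arrays, and Mrgprx2 on no altered array. Their measured changes are therefore not exact, and their lower bounds were 1.25-fold and 3.1-fold.

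Each genotype's own difference from control stands beside the pooled change, over the 34 called genes that were well above background on all 8 arrays. Among the 17 of them called higher, the null minus control difference ran from 1.27 to 3.76 with a median of 2.01, and the Tbx18VP16 minus control difference from 1.39 to 3.99 with a median of 1.89. Among the 17 called lower, the ranges were -3.64 to -1.36 with a median of -1.88 for null and -3.61 to -1.50 with a median of -2.19 for Tbx18VP16. Within the first slide, the null minus control differences of these genes ran from 1.17 to 3.61 and from -3.42 to -1.20, and within the second slide, with 1 array of each, from 1.38 to 4.06 and from -4.07 to -1.36. All 34 genes were called on these same arrays, with no overlap between both sides. The shared direction over genotypes and slides thus follows from the choice of genes and is not a separate result. The differences of both genotypes share the 3 control arrays, and the Tbx18VP16 difference was the larger in size for 20 of the 34 genes. In the fit of 3 group means, 594 of all genes tested differed between Tbx18VP16 and null (3.09%), and 3 of the 46 did, all from the upward side. C1qtnf7 was higher in Tbx18VP16 than in null pools by 2.09 ± 0.44 (SE; adjusted p = 0.0476), Lhx3 by 1.35 ± 0.27 (SE; adjusted p = 0.0422) and Pdlim3 by 1.24 ± 0.26 (SE; adjusted p = 0.0485). Nothing is read from that share, because a difference between both genotypes widens the spread of the altered side and so makes a call less likely.

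**Figure D5:**
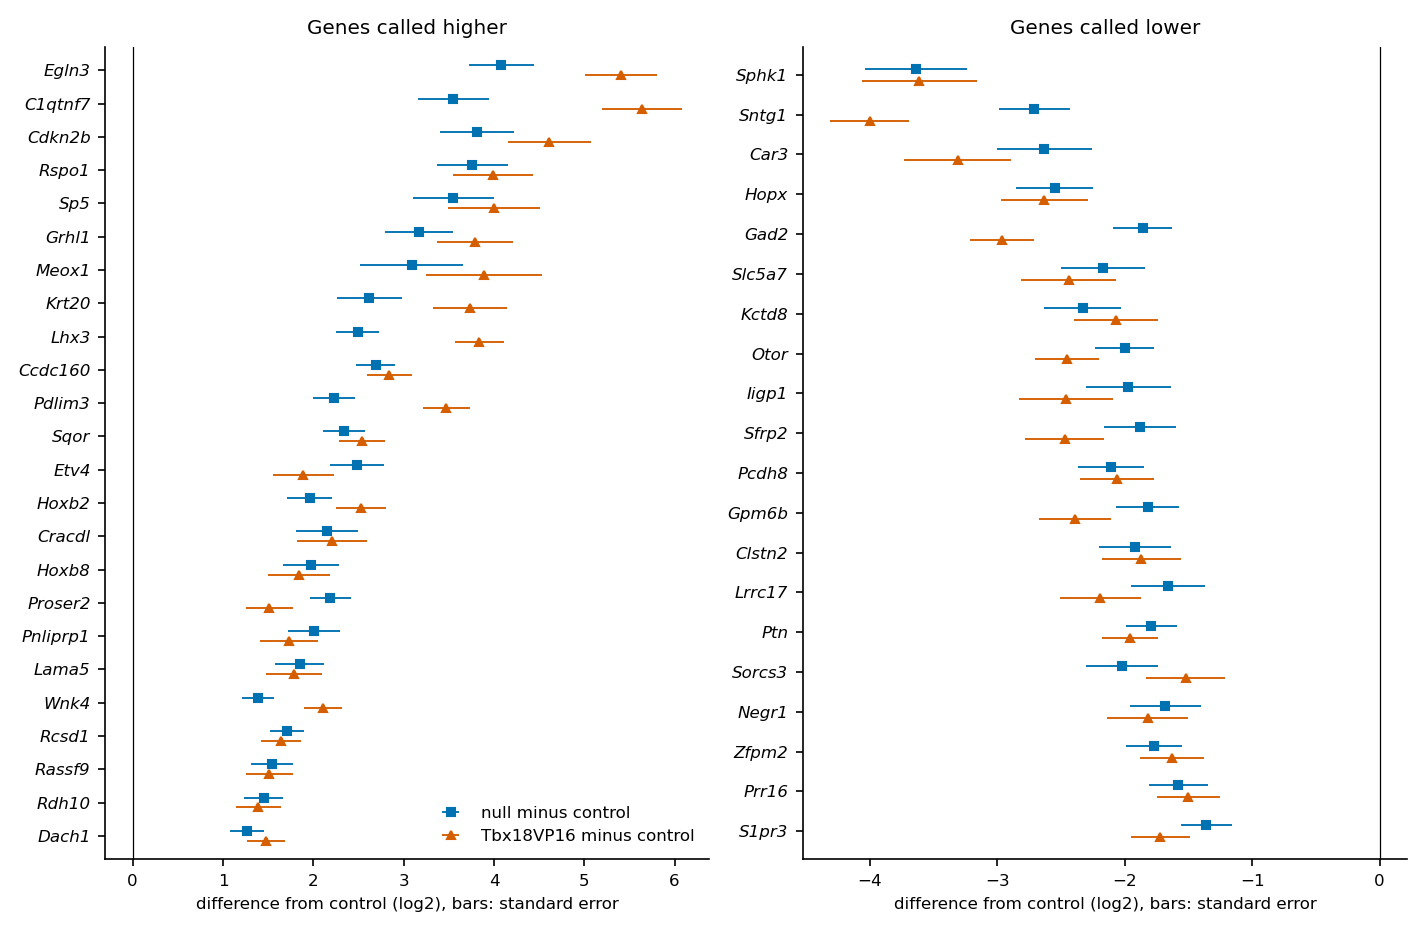
Difference from control of the null arrays (squares) and of the Tbx18VP16 arrays (triangles) for each called gene with a gene name, in log2, with bars for the standard error (fit of 3 group means). Both differences share the 3 control arrays, and those of Egln3, Cdkn2b, Sp5, Grhl1, Lhx3, Krt20, C1qtnf7, Sntg1, Slc5a7 and Sorcs3 rest on arrays not well above background. C1qtnf7, Lhx3 and Pdlim3 have the Tbx18VP16 value to the right of the null value by 2.09, 1.35 and 1.24.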

How the data were processed

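RNA of sorted GFP-positive cells was measured on 8 arrays of 1 colour, grouped by the genotype in the labels. Spot intensity values and flags came from Agilent Feature Extraction 10.7.3.1, per the submitters' processing notes; gProcessedSignal was already background-subtracted, per the file headers. The table of values that the authors deposited gives linear intensity (sorted columns are identical, the floor is 10 and each median 93.77). No source used here names its software. It was used as an alternative. The flags (unit other), per the file headers, mark outlier spots and signal well above background.

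The 39429 probes of 60 bases on both designs were kept, control and outlier spots (1.86% to 2.55%) left out, the 4 spots of a probe averaged, and log2 of the signal minus the array's 75th percentile taken. Through RefSeq tables (GRCm38.p6), an accession named 28356 probes, a symbol 3733 and a synonym 267, while 4742 carry the name in the file and 2331 no name. The files give probe positions in mm9. Testing required signal well above background on 3 or more of the 8 arrays, and the brightest probe stood for its gene. For the 14 called genes with more than 1 tested probe, all of a gene's probes changed in the same direction.

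Altered (5) and control (3) arrays were compared as 2 groups with limma 3.58.1 (lmFit, eBayes; R 4.3.3), two-sided, with Benjamini-Hochberg adjustment. Differences between the genotypes came from a fit of 3 group means. The fit of 2 groups was run on simulated data with independent noise and the same change in both altered genotypes. Those data held no pairing, slide effect or difference between genotypes, so the run says nothing on these. Whether replicate numbers pair the pools was checked. Departures from the mean of the group correlated at 0.818, 0.712 and 0.423 for control and null pools 1, 2 and 3, and between -0.27 and 0.05 for Tbx18VP16 pools and those of the same number, so the numbers pair control with null only. Nothing says whether pools came from separate litters, so p-values measure the spread between pools. In the fit of 2 groups, that spread also holds the difference between null and Tbx18VP16 arrays, which differ in design and slide too. The pairing of control with null is left out of it. Alternatives changed the scaling, background, filter, probe rule, block and arrays.

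The members and gene lists were chosen with earlier results of these data known. Named genes are Tbx18 and Hprt, the 12 called genes with the largest gap in each direction, up to 4 members of smallest p per list, and up to 4 called genes with the most equal (per direction) and with the most different changes in both genotypes, without clone-like names. Further called genes and those just outside the threshold were named after their values were seen.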

Additional observations from a re-analysis of the deposited data

Results flagged for a closer look

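A gap test over the 5 altered arrays (Dixon's, at its 95% critical value) was run for 123 genes: the called genes, Tbx18, Hprt, the Hoxb genes and, of the 4 members of smallest p in each gene list, those whose altered and control arrays do not overlap. It marked 1 array as far from the others for 6 of them, about what the 1 in 20 that chance gives would yield. Among called genes, Slc5a7 was at -5.70 on null array 2 against -6.64 to -6.43 on the other altered arrays, and Negr1 at -2.32 on null array 3 against -2.79 to -2.69. Among genes that did not pass, Col18a1 was at 0.99 on null array 2, Krt19 at -0.71 and Itga3 at -4.87 on null arrays 3 and 1, and Hoxb3 at -0.44 on null array 1.

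Another 15 of these genes differed between Tbx18VP16 and null pools in the fit of 3 group means. The differences, Tbx18VP16 minus null, were 3.23 for Tbx18 and -4.45 for Hprt, and among called genes 2.09 for C1qtnf7, 1.35 for Lhx3 and 1.24 for Pdlim3. Higher in Tbx18VP16 pools were also Ntn1 by 2.01, Gp6 by 2.01, Sema3e by 1.31, Phlda3 by 1.30, Inhba by 1.23 and Fzd10 by 1.19. Lower in Tbx18VP16 pools were Hoxb1 (-2.92), Col8a1 (-2.22), Dcn (-2.06) and Cyp26a1 (-1.53). Cyp26a1 was well above background on no control and no Tbx18VP16 array, so its difference and its side of control are not exact. For each of the 15 genes except Tbx18 and Hprt, all 5 altered arrays lay on the same side of control. That follows largely from the choice of genes, since only called genes, non-overlapping list members and the Hoxb genes were examined besides. It is therefore not a result about the genotypes. Genotype cannot be told apart from array design and slide in these differences.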

How the results depend on the processing

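Against 46 called genes (25 higher, 21 lower), a fit of 3 group means gave 193 (109 and 84), or 247 (135 and 112) with equal weight of the genotypes. The fixed replicate block gave 15 (8 and 7), the random pairs 1134 (608 and 526), the slide as a random block 91 (46 and 45), and the arrays without 10 ng input 0 (0 and 0). Normexp gave 33 (13 and 20), and the strict filter on dim probes 65 (33 and 32). The counts with the 75th percentile over all probes, quantile normalisation, the authors' values, no filter, the mean of probes and the 2-fold demand lay between 42 and 55. Leaving out 1 array gave 5 to 114 called, 3 to 66 higher and 2 to 48 lower. Genes with all altered arrays above control numbered 738 without the 10 ng arrays and 468 to 1088 without 1 array, those below 757 and 446 to 1303, and a gap of at least 1 was reached upward by 55 and by 33 to 83, downward by 36 to 58 without 1 array, and by 14 and 18 with normexp. With fewer arrays, fewer must be kept apart. Hprt turned from -1.30 to 0.15 with the random pairs. All 46 kept their direction, and 44 of them still had non-overlapping arrays under normexp, which pulls dim probes toward 0 (Egln3 1.81, Cdkn2b 1.15). The random pairs apply 1 correlation, 0.816, to all genes. Signal over background limits 12 of the called genes, among them 7 that no control array measured.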

Other observations

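Of the 25 genes called higher, 6 lie in 1 stretch of chromosome 11, from 96.1 to 101.7 Mb (mm9): Hoxb8, Hoxb2, Krt20, Wnk4, Etv4 and Meox1. The stretch was delimited after these calls were seen, by its first and last called gene, so its counts are a description and carry no test. It holds 189 of the genes tested (0.983%), of which 17 (8.99%) had all 5 altered arrays above control and 1 all below. Among the other 19046 genes, 412 (2.16%) had all 5 above and 400 all below. The median change was -0.04 in the stretch and -0.06 outside it. Of the 17 genes, Hoxb8, Hoxb6, Hoxb5, Hoxb4, Hoxb2 and Hoxb1 belong to the Hoxb cluster. Sphk1, the called gene with the widest gap downward, also lies on chromosome 11, at 116397908 to 116397967, outside the stretch.

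The spread within each side differed among the called genes. Dach1 was between 1.18 and 1.33 on the control arrays and between 2.41 and 2.82 on the altered arrays. Prr16 had altered arrays between -5.04 and -4.75, and S1pr3 had control arrays between 1.98 and 2.15. At the other end, C1qtnf7 had an SD of 1.21 over its altered arrays and Meox1 one of 0.94.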
